A study of Mus musculus with 6 samples.

Results

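Acute phase proteins are plasma proteins that the liver secretes in changed amounts after injury or infection. The 10 genes described here encode 4 serum amyloid A proteins (Saa1, Saa2, Saa3, Saa4), the orosomucoids Orm1 and Orm2, the haemoglobin binder haptoglobin (Hp), the heme binder hemopexin (Hpx), serum amyloid P (Apcs) and the siderophore binder lipocalin 2 (Lcn2). They were chosen by gene symbol, as 10 of the 28476 genes measured, and each symbol matched 1 gene. The tissue was whole liver from C57BL/6 mice, which had been fasted overnight and injected intraperitoneally with 300 mg/kg acetaminophen (APAP) 24 h earlier. APAP is an analgesic whose overdose injures hepatocytes. The groups were 3 livers labelled Nedd4 HepKO, called HepKO below, and 3 livers labelled Flox. The series title names the ubiquitin ligase NEDD4-1 as the protein under study, and the comparison asks how these genes differ between the genotypes after the overdose. The labels name no Cre driver, age or sex. Livers without APAP are not analysed here, so each difference is between 2 treated genotypes and not a response to APAP.

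The acute phase response is driven in hepatocytes mainly by cytokines of the interleukin 6 family, which act through STAT3, and by interleukin 1 and tumour necrosis factor, which act through NF-kappaB. C/EBP transcription factors take part in both arms. In mice, Saa1 and Saa2 are classically induced acute phase genes of the hepatocyte and their products travel on high-density lipoprotein, Saa3 is also made by macrophages and adipocytes, and Saa4 is regarded as the constitutive member of the family. Lcn2 is made by injured hepatocytes and is also stored in the granules of neutrophils.

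The SAA genes lie side by side on chromosome 7, and their promoters are shown because the 4 neighbours did not move alike in the data that follow. Gene coordinates are those of the deposited table, which were identical to GENCODE M21 on GRCm38 for 9 of the 10 genes. The 5′ end of Lcn2, which is on the minus strand, is base 32387797 in the table and base 32388252 in that annotation. Saa3 (chr7:46711998-46715700), Saa4 (chr7:46727998-46732603) and Saa1 (chr7:46740497-46742980) are on the minus strand, and Saa2 (chr7:46751790-46754313) is on the plus strand. The gaps between neighbours measured 12297 bases from Saa3 to Saa4, 7893 from Saa4 to Saa1 and 8809 from Saa1 to Saa2, the last between genes that point away from each other. The sequences are RefSeq promoters on GRCm38.p6, read 5′ to 3′ on the strand of the gene and limited to bases before the annotated exons. Their positions are chr7:46742981-46743230 (minus strand) for Saa1, chr7:46751583-46751789 (plus strand) for Saa2, chr7:46715701-46715926 (minus strand) for Saa3 and chr7:46732604-46732853 (minus strand) for Saa4. Capitals mark matches, on either strand, to the C/EBP-type letters TTNNGNAA.
Saa1: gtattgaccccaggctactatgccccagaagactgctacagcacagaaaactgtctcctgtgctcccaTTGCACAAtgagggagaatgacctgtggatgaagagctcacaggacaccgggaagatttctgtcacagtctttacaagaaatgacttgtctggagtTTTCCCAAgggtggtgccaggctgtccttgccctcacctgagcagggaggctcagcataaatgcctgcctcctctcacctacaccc
Saa2: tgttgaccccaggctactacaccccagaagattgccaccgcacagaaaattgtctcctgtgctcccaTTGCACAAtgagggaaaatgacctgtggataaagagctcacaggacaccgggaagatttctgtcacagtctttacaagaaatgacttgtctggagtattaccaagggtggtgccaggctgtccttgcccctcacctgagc
Saa3: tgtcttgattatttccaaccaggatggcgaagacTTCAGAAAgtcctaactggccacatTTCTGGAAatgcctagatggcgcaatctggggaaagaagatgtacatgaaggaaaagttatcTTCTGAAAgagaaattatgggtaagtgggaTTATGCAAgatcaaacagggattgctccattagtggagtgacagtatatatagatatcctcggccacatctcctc
Saa4: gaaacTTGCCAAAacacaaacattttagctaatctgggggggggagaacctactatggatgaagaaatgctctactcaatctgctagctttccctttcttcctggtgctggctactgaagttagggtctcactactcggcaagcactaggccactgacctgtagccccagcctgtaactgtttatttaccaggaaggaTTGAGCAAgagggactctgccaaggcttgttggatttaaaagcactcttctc

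Over the whole 250 bases before the RefSeq start, the Saa1 and Saa2 promoters were identical at 238 of 249 aligned bases (95.6%), and Saa1 and Saa3 at 154 of 205 (75.1%). For Saa2 and Saa3 these windows run on into annotated exons, beyond the bases shown. The same 8 letters, beginning 182 bases before the RefSeq start of Saa1 and 183 before that of Saa2, matched in both genes. Saa1 held a second match beginning 86 bases before its start, which was absent from the Saa2 window. Saa3 held 4 matches and Saa4 held 2. In the 250 bases before the RefSeq start, the C/EBP-type letters were present in 7 of the 8 acute phase genes that have a RefSeq entry, all but Apcs, and in 36.8% of 32536 mouse promoters of that length. The Lcn2 window begins inside an exon of Lcn2 in the GENCODE annotation, so the Lcn2 match does not lie before the annotated exons. The STAT-type letters TTCNNNGAA matched in 1 of the 8 genes, Apcs, against 7.04% of promoters, and the NF-kappaB consensus matched in 0 of the 8, against 7.28% of promoters. Searches covered both strands, and a match or its absence describes these letters only.

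Nedd4, the targeted gene, had 0.618, 0.666 and 0.565 FPKM in the HepKO livers, against 2.18, 2.59 and 2.23 FPKM in the Flox livers, and was 3.78-fold lower in HepKO (log2 fold change -1.04, limma adjusted p = 0.0015). FPKM is the authors' measure of fragments, scaled to transcript length and to the size of the library. Libraries summed to between 456176 and 496303 FPKM, and the read depth behind them is unknown because the values are FPKM. HepKO replicate 1 stood apart in its mitochondrial transcripts, which took 24.6% of its FPKM against 16.7% to 18.3% in the other 5 libraries. Whether the libraries come from separate animals is not stated in the labels, and p-values therefore reflect only the spread among these libraries, which may be technical. Whole liver was sequenced, so fewer cells of a type and less RNA per cell cannot be told apart. The hepatocyte markers were present in all libraries, with Alb, which encodes albumin, averaging 26922 ± 1965 FPKM in HepKO and 25956 ± 3260 FPKM in Flox (SD, n = 3 each).

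The acute phase genes did not move together. Saa1, Saa2 and Saa4 were lower in HepKO livers and Lcn2 was higher, while Saa3 and Orm1 were higher in every HepKO liver without passing the threshold and Orm2, Hp and Hpx overlapped between the groups. A change was called at an adjusted p under 0.05 from limma, fitted on log2(FPKM + 1) over all 12712 genes that averaged 0.5 FPKM or more. All 10 genes passed that filter, and 4 passed the test, 1 higher and 3 lower, where 20.3% of all tested genes were called (9.33% higher and 11.0% lower). The groups did not overlap for 7 of the 10, against 42.4% of all tested genes. In 3 of the 7 HepKO was higher (17.2% of all tested genes) and in 4 it was lower (25.2%). The median log2 fold change of the 10 genes was -0.07, beside -0.06 over all tested genes.

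**Figure D1:**
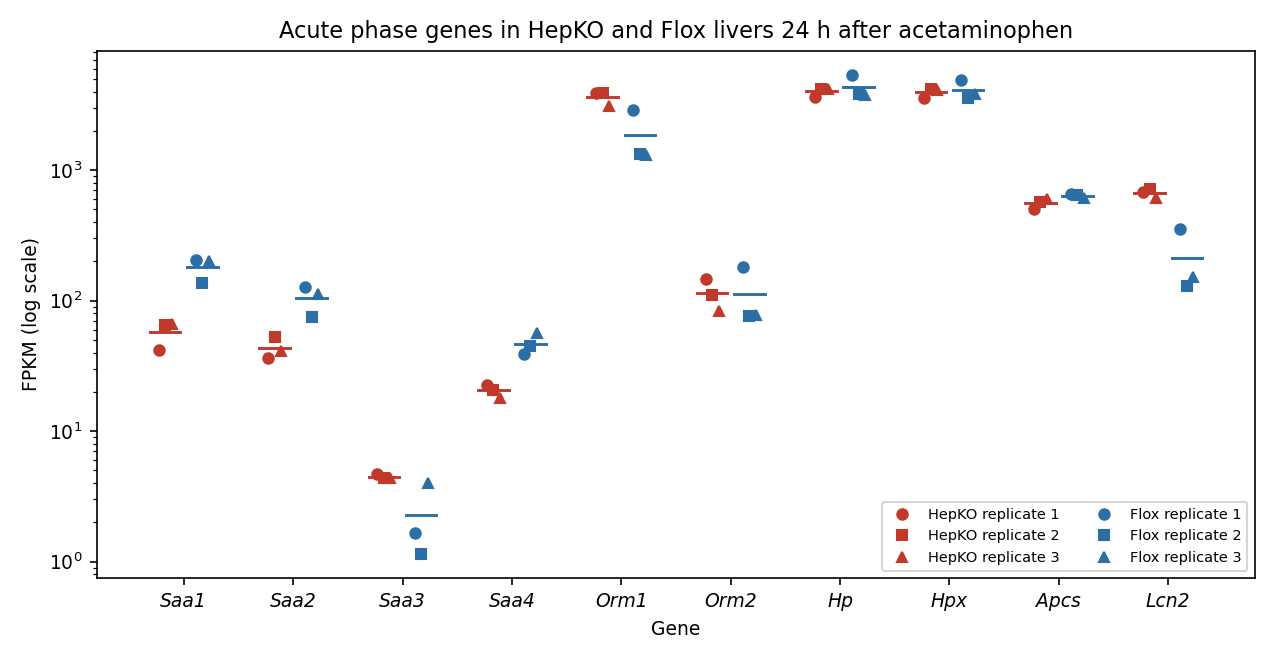
FPKM on a log scale for each of the 10 genes, with HepKO livers in red and Flox livers in blue, marker shapes for replicates and bars for group means. The HepKO points of Saa1, Saa2 and Saa4 lie below all Flox points, those of Saa3, Orm1 and Lcn2 lie above them, and Flox replicate 1 sits above the other Flox livers for Orm1, Orm2 and Lcn2.

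Saa1 (ENSMUSG00000074115, 4 exons) encodes a major acute phase serum amyloid A. It had 41.97, 64.99 and 66.61 FPKM in the HepKO livers, against 204.6, 136.2 and 201.3 FPKM in the Flox livers. Every HepKO liver lay under the lowest Flox liver, and Flox replicate 2 was the nearest to HepKO. Means were 57.9 ± 13.8 FPKM in HepKO and 180.7 ± 38.6 FPKM in Flox (SD, n = 3 each), so Saa1 was 3.12-fold lower in HepKO. Its log2 fold change was -1.63 (SE 0.24, 95% limma interval -2.19 to -1.07, limma adjusted p = 0.0053).

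Saa2 (ENSMUSG00000057465, 4 exons), the neighbouring copy of Saa1 on the other strand, had 36.44, 52.28 and 41.26 FPKM in the HepKO livers, against 126.2, 74.46 and 113.0 FPKM in the Flox livers. The groups again did not overlap, with Flox replicate 2 once more the lowest Flox liver. Saa2 fell to 43.3 ± 8.12 FPKM in HepKO, against 104.5 ± 26.9 FPKM in Flox, a 2.41-fold difference (log2 fold change -1.23, SE 0.23, interval -1.77 to -0.69, limma adjusted p = 0.013).

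The main transcripts of Saa1 and Saa2 were identical at 572 of 606 aligned bases (94.4%), with a longest identical run of 99 bases, so no read of 150 bases fits both exactly over its whole length. Reads that carry mismatches could still have been assigned to either copy, and the treatment of such reads by the quantification is unknown. The sum of the pair does not depend on that split. Saa1 and Saa2 together had 78.4, 117.3 and 107.9 FPKM in the HepKO livers, against 330.8, 210.7 and 314.3 FPKM in the Flox livers, a 2.82-fold lower mean in HepKO. The exact two-sided permutation test gave p = 0.10, the smallest that 3 against 3 libraries allow. The ratio of Saa1 to Saa2 was 1.15, 1.24 and 1.61 in the HepKO livers, against 1.62, 1.83 and 1.78 in the Flox livers. HepKO replicate 3 and Flox replicate 1 nearly met.

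Saa4 (ENSMUSG00000040017, 4 exons) had 22.63, 20.78 and 18.08 FPKM in the HepKO livers, against 39.01, 44.56 and 56.09 FPKM in the Flox livers. The livers within each group lay closer together than for Saa1 or Saa2, and the groups did not overlap. Saa4 fell to 20.5 ± 2.29 FPKM in HepKO, against 46.5 ± 8.71 FPKM in Flox, a 2.27-fold difference (log2 fold change -1.14, SE 0.16, interval -1.51 to -0.76, limma adjusted p = 0.0048). Saa4 and Saa1 remained past the threshold whichever single library was left out, with limma adjusted p of at most 0.023 and 0.024. Saa2 did so more narrowly, at up to 0.047, and missed the threshold when replicate number was added to the fit (limma adjusted p = 0.053).

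Saa3 (ENSMUSG00000040026, 4 exons), the least abundant of the 10 genes, had 4.70, 4.35 and 4.39 FPKM in the HepKO livers, against 1.65, 1.15 and 3.98 FPKM in the Flox livers. The HepKO livers were almost level with one another, and Flox replicate 3 came close to them. Means were 4.48 ± 0.19 FPKM in HepKO and 2.26 ± 1.51 FPKM in Flox. The log2 fold change of 0.85 (SE 0.29, interval 0.14 to 1.55) did not pass the threshold (limma adjusted p = 0.088). Without Flox replicate 3 it was 1.20 and passed (limma adjusted p = 0.0084). In that fit 800 of 12695 tested genes were called higher and 683 lower. Every other fit that left out 1 library gave Saa3 a limma adjusted p between 0.15 and 0.21.

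The position of Saa3 against its neighbours was also read as a ratio within each library, which a common scaling of that library cannot move. Saa3 divided by Saa1 was 0.112, 0.0669 and 0.0660 in the HepKO livers, against 0.00807, 0.00840 and 0.0198 in the Flox livers. All HepKO ratios lay above all Flox ratios, with a mean 6.76-fold higher in HepKO (exact two-sided permutation p = 0.10, the smallest possible; 0.12 after Benjamini-Hochberg adjustment over the 7 sums and ratios tested). The 5 ratios were chosen after the values were seen.

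**Figure D2:**
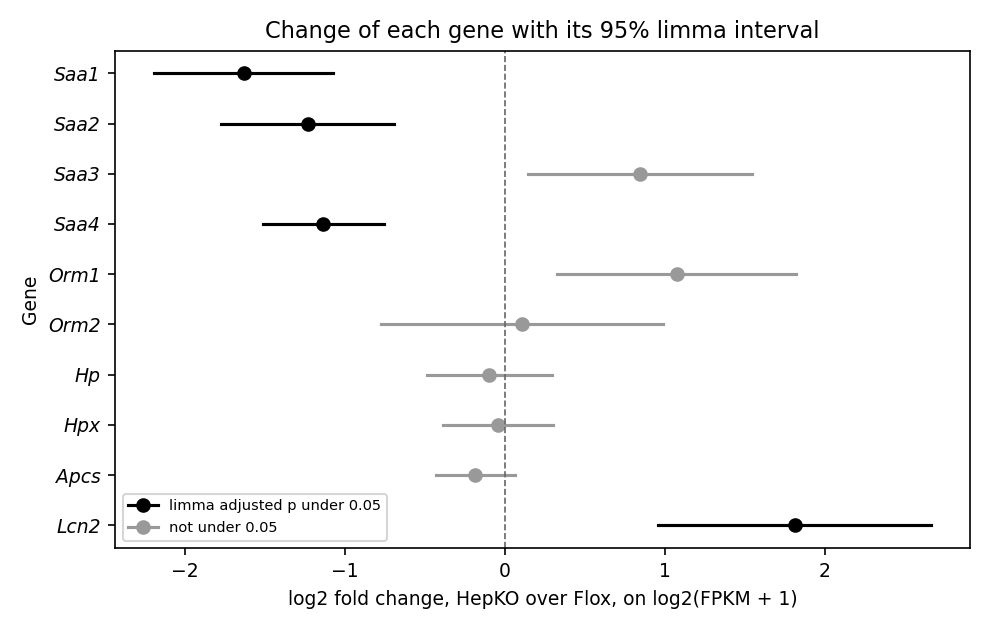
Log2 fold change of HepKO over Flox on the log2(FPKM + 1) scale for each gene, with its 95% limma interval, in black where the limma adjusted p was under 0.05 and in grey otherwise. Saa1, Saa2 and Saa4 lie left of 0 and Lcn2 lies right of it, while the intervals of Orm2, Hp, Hpx and Apcs cross 0.

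Orm1 and Orm2 encode orosomucoid, a heavily glycosylated plasma protein that binds basic drugs and other small molecules. Orm1 (ENSMUSG00000039196, chr4:63344560-63348163, plus strand, 6 exons) had 3880, 3928 and 3123 FPKM in the HepKO livers, against 2898, 1338 and 1311 FPKM in the Flox livers. Every HepKO liver was above every Flox liver, but Flox replicate 1 lay close to the HepKO range and far from the other Flox livers. Means were 3644 ± 451.3 FPKM in HepKO and 1849 ± 908.8 FPKM in Flox. The log2 fold change of 1.08 (SE 0.31, interval 0.33 to 1.82) missed the threshold (limma adjusted p = 0.054). Without Flox replicate 1, Orm1 was 2.75-fold higher in HepKO, with a log2 fold change of 1.45 (limma adjusted p = 0.0038, where 17.2% of tested genes were called). Every other fit that left out 1 library gave Orm1 a limma adjusted p between 0.080 and 0.154.

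Orm2 (ENSMUSG00000061540, chr4:63362449-63365878, plus strand, 6 exons) had 146.4, 110.7 and 83.6 FPKM in the HepKO livers, against 181.8, 76.7 and 77.7 FPKM in the Flox livers. Flox replicate 1 was the highest library of all, above every HepKO liver, so the groups overlapped. Means were 113.6 ± 31.5 FPKM in HepKO and 112.0 ± 60.4 FPKM in Flox, and the interval of the log2 fold change, -0.78 to 0.99, left room for differences in either direction (limma adjusted p = 0.87). The direction of Orm2 flipped when HepKO replicate 1, Flox replicate 2 or Flox replicate 3 was left out.

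Orm1 took 96.4%, 97.3% and 97.4% of the summed Orm1 and Orm2 FPKM in the HepKO livers, against 94.1%, 94.6% and 94.4% in the Flox livers. As a ratio, Orm1 over Orm2 was 26.5, 35.5 and 37.3 in the HepKO livers, against 15.9, 17.5 and 16.9 in the Flox livers. The Flox ratios were nearly constant although Flox replicate 1 had more than both other Flox livers of each transcript, and every HepKO ratio lay above them (exact two-sided permutation p = 0.10, the smallest possible; adjusted 0.12). The transcripts of Orm1 and Orm2 were identical at 705 of 775 aligned bases (91.0%), with a longest identical run of 141 bases, so the split between them carries the same reservation as that between Saa1 and Saa2. Their sum had a mean of 3757 ± 476.6 FPKM in HepKO and 1961 ± 969.2 FPKM in Flox (exact two-sided permutation p = 0.10, the smallest possible; n = 3 each). Orm3, which lies between them and is not among the 10 genes, had 8.10, 10.4 and 8.08 FPKM in the HepKO livers, against 4.73, 3.00 and 6.90 FPKM in the Flox livers (limma adjusted p = 0.067).

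**Figure D3:**
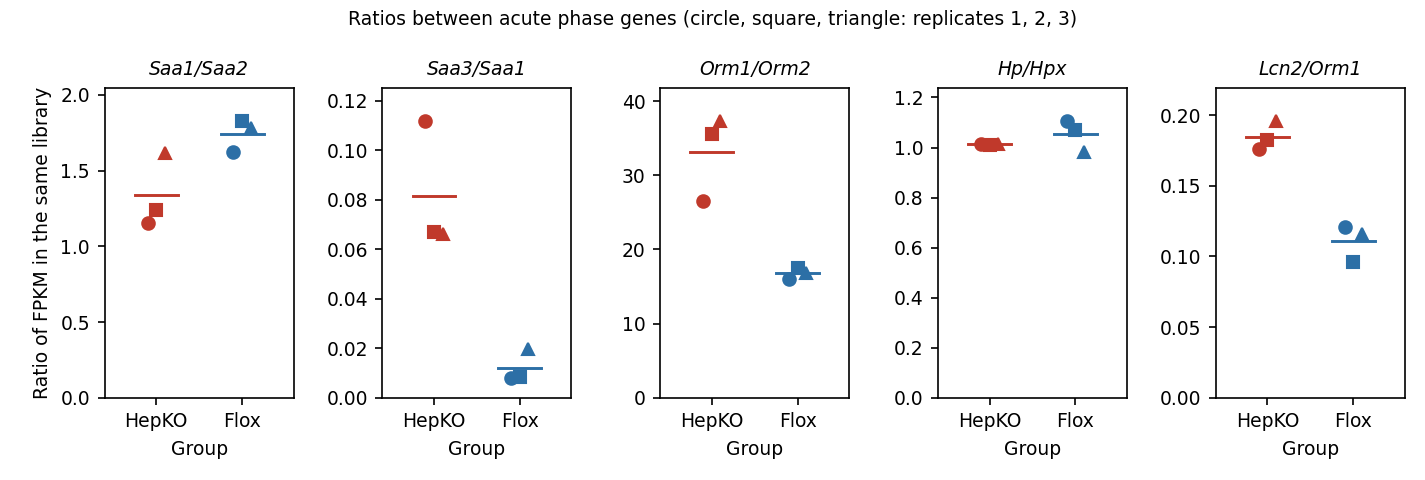
Ratios of FPKM within each library, on axes that start at 0, for HepKO livers in red and Flox livers in blue, with bars for group means. Saa3/Saa1, Orm1/Orm2 and Lcn2/Orm1 are higher in every HepKO liver, Saa1/Saa2 is lower in every HepKO liver, and Hp/Hpx overlaps.

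Haptoglobin and hemopexin, which bind free haemoglobin and free heme in plasma, were the most abundant of the 10 transcripts in Flox livers and did not separate the groups. Hp (ENSMUSG00000031722, chr8:109575128-109579172, minus strand, 5 exons) had 3636, 4201 and 4182 FPKM in the HepKO livers, against 5385, 3852 and 3765 FPKM in the Flox livers. Flox replicate 1 was the highest and the other Flox livers fell within the HepKO range. Means were 4006 ± 320.6 FPKM in HepKO and 4334 ± 911.0 FPKM in Flox (log2 fold change -0.10, interval -0.49 to 0.29, limma adjusted p = 0.71).

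Hpx (ENSMUSG00000030895, chr7:105591613-105600137, minus strand, 10 exons) had 3588, 4149 and 4119 FPKM in the HepKO livers, against 4863, 3593 and 3837 FPKM in the Flox livers. The order of the libraries resembled that of Hp, with Flox replicate 1 on top. Its log2 fold change was -0.04 (interval -0.39 to 0.30, limma adjusted p = 0.86). The direction of Hp flipped without Flox replicate 1, and that of Hpx flipped without Flox replicate 1, without HepKO replicate 1 and after median-ratio rescaling.

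The ratio of Hp to Hpx was 1.01 in each HepKO liver, against 1.11, 1.07 and 0.981 in the Flox livers. The groups overlapped (exact two-sided permutation p = 0.40, adjusted 0.40).

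Apcs (ENSMUSG00000026542, chr1:172893961-172895041, minus strand, 2 exons) encodes serum amyloid P, a pentraxin that is an acute phase protein in mice. It had 505.6, 573.5 and 597.5 FPKM in the HepKO livers, against 651.4, 641.0 and 610.1 FPKM in the Flox livers. All HepKO livers lay just under all Flox livers. Means were 558.9 ± 47.7 FPKM in HepKO and 634.2 ± 21.5 FPKM in Flox, and the log2 fold change of -0.19 (interval -0.43 to 0.06) did not pass the threshold (limma adjusted p = 0.25).

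Lcn2 (ENSMUSG00000026822, chr2:32384633-32387797, minus strand, 6 exons) encodes lipocalin 2, which withholds iron from bacteria by binding their siderophores. It had 682.3, 717.2 and 612.1 FPKM in the HepKO livers, against 351.0, 128.4 and 152.0 FPKM in the Flox livers. The groups did not overlap, and Flox replicate 1 stood between the HepKO livers and the other Flox livers. Lcn2 rose to 670.5 ± 53.6 FPKM in HepKO, against 210.5 ± 122.3 FPKM in Flox, a 3.19-fold difference (log2 fold change 1.81, SE 0.36, interval 0.96 to 2.66, limma adjusted p = 0.016). The call was lost without HepKO replicate 1 (adjusted p = 0.052), HepKO replicate 2 (0.058) or Flox replicate 3 (0.057). Without Flox replicate 1 the difference was 4.78-fold (log2 fold change 2.25, limma adjusted p = 0.0010).

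Neutrophil markers moved with Lcn2. Of 13 markers, 11 were among the genes measured, and 8 of these passed the filter on low values. Of the 8, 4 (Cxcr2, Mmp8, Mmp9 and Ngp) passed it only through the HepKO livers, so that they could hardly be other than higher there. The other 4, S100a8, S100a9, Retnlg and Csf3r, rose in HepKO. The summed level of the markers was 130.7, 154.5 and 141.7 FPKM in the HepKO livers, against 20.1, 10.7 and 19.3 FPKM in the Flox livers. The markers Ly6g, Ltf and Elane were at or near 0. These markers other than S100a9 and Retnlg were named after their values were seen. Flox replicates 1 and 3 had nearly the same summed neutrophil level, whereas Lcn2 was 351.0 FPKM in the first and 152.0 FPKM in the other. The part of neutrophil RNA in the Lcn2 difference was not tested. Set against Orm1, Lcn2 had a ratio of 0.176, 0.183 and 0.196 in the HepKO livers, against 0.121, 0.0959 and 0.116 in the Flox livers (exact two-sided permutation p = 0.10, the smallest possible; adjusted 0.12).

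Flox replicate 1 differed from the other Flox livers in some of the 10 genes and not in others. Relative to the mean of Flox replicates 2 and 3, it had 2.50 times the Lcn2, 2.36 times the Orm2, 2.19 times the Orm1, 1.41 times the Hp, 1.35 times the Saa2 and 1.31 times the Hpx. For Saa1 that ratio was 1.21 and for Apcs 1.04, while Saa3 (0.645) and Saa4 (0.775) were lower in Flox replicate 1. The 10 genes together took 2.53%, 2.87% and 2.80% of the FPKM in the HepKO livers, against 3.22%, 2.15% and 2.19% in the Flox livers, so their summed share overlapped between the groups.

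**Figure D4:**
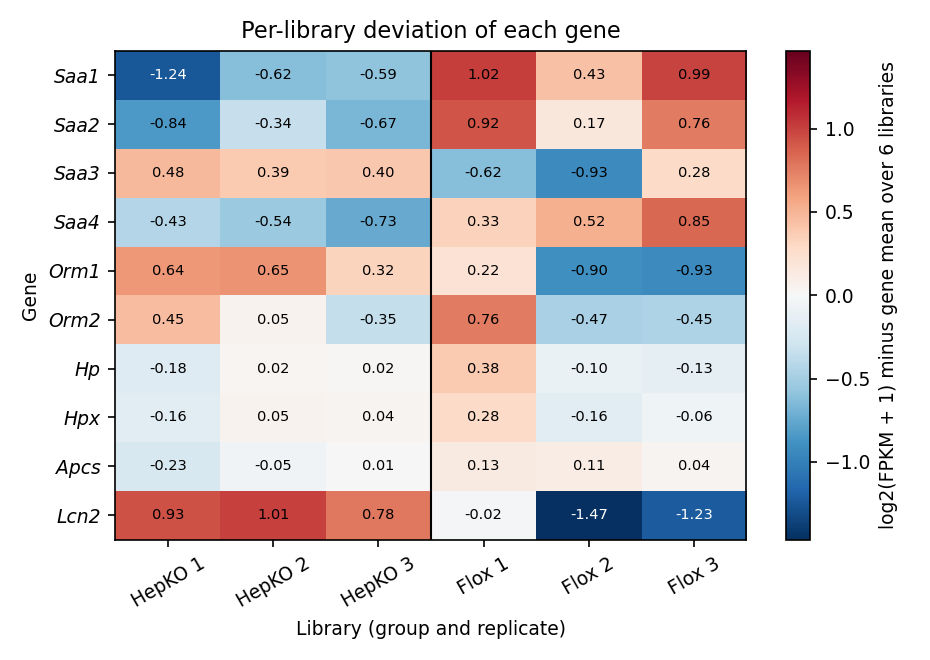
Each gene's log2(FPKM + 1) minus its mean over the 6 libraries, with genes in rows and libraries in columns, HepKO on the left and Flox on the right. Saa1, Saa2 and Saa4 are below their mean in every HepKO liver, Saa3, Orm1 and Lcn2 are above theirs in every HepKO liver, and Flox replicate 1 is above the mean for Orm1, Orm2, Hp and Hpx.

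The authors' deposited table gives q-values of its own for the same comparison. In the authors' deposited table, 6 of the 10 genes had a q-value under 0.05, where 8.97% of all 28476 genes did. That share also counts genes below the filter used for limma, which all 10 genes passed. These were the 4 genes called by limma together with Orm1 (q = 0.0037) and Saa3 (q = 0.045 in the authors' deposited table). The lowest q-values in the authors' deposited table were those of Saa1 (7.14e-10) and Lcn2 (2.32e-06).

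Other positive acute phase genes also went in both directions, and with the main settings more of them rose than fell. Of 22 genes on that list, all tested, 8 rose, 5 fell and 9 did not pass, with a median log2 fold change of 0.26. Leaving out 1 library gave 5 to 7 that rose and 1 to 5 that fell. The fibrinogen chain Fga rose to 5219 ± 463.0 FPKM in HepKO, against 2762 ± 495.3 FPKM in Flox (limma adjusted p = 0.0088, and 0.053 with no filter on low values), and Fgb to 4010 ± 161.2 FPKM in HepKO, against 2288 ± 257.3 FPKM in Flox (limma adjusted p = 0.0051). The serpin gene Serpina3n, one of a multigene family whose members may exchange reads, rose 2.35-fold (1476 FPKM in HepKO and 626.8 FPKM in Flox, limma adjusted p = 0.013). Cd14, the lipopolysaccharide co-receptor and the gene with the smallest adjusted p on the list, rose 3.72-fold, with 25.7 FPKM in HepKO and 6.90 FPKM in Flox (limma adjusted p = 0.0050).

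The genes of that list that fell, as Saa1, Saa2 and Saa4 did, included Lbp, which encodes the lipopolysaccharide binding protein, at 19.3 ± 2.94 FPKM in HepKO against 32.6 ± 1.34 FPKM in Flox (limma adjusted p = 0.0097). Crp, which encodes a pentraxin related to Apcs, fell to 72.8 ± 5.36 FPKM in HepKO, against 120.0 ± 16.7 FPKM in Flox (limma adjusted p = 0.014), and its call was lost without Flox replicate 2 (0.056). C3, Cfb and Itih3 also fell, and each lost its call when at least 1 library was left out, as did Fgg, Fn1 and Lrg1 among those that rose. Hamp, the hepcidin gene and the most abundant on the list, averaged 6101 FPKM in HepKO and 5079 FPKM in Flox without passing (limma adjusted p = 0.14). Fga, Fgb, Serpina3n, Lbp, Crp, Fgg, Fn1, Lrg1, C3, Cfb and Itih3 were named after their values were seen.

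Negative acute phase genes are those whose products fall in plasma during inflammation. Of 10 tested, 1 rose, 2 fell and 7 did not pass, with a median log2 fold change of -0.21. Over all tested genes, 9.33% were called higher and 11.0% lower. The groups did not overlap for 7 of the 10, against 42.4% of all tested genes. HepKO was lower in 5 of the 7 (25.2% of all tested genes) and higher in 2 (17.2%). Serpina6, the gene that rose, lost its call in 4 of the 6 fits that left out 1 library, and Ahsg, which fell, in 5 of the 6. Pon1, the paraoxonase carried on high-density lipoprotein, fell to 79.9 ± 7.60 FPKM in HepKO, against 146.6 ± 12.3 FPKM in Flox (limma adjusted p = 0.0041). Alb, the most abundant, did not pass (limma adjusted p = 0.79). Serpina6 and Ahsg were named after their values were seen.

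Among 8 inducing cytokines, 7 were among the genes measured, and 5 of these passed the filter on low values. Tnf, Lif and Il11 passed it only through the HepKO livers, so a count of those called says little. Il1b was called in every fit that left out 1 library. Of the 3 that passed the filter only through the HepKO livers, Il11 was also called in every such fit, whereas Tnf lost its call in 4 of the 6 and Lif in 3. These 3 could hardly be other than higher in HepKO, however stable the call. Il1b, which encodes interleukin 1 beta, had 4.01, 4.45 and 2.10 FPKM in the HepKO livers, against 0.642, 0.764 and 0.719 FPKM in the Flox livers (limma adjusted p = 0.0074). Il11, a member of the interleukin 6 family, had 1.26, 1.56 and 1.08 FPKM in the HepKO livers, and it was listed at 0 in Flox replicate 1 and at 0.160 FPKM in both other Flox livers (limma adjusted p = 0.0029). Il6 was too low to be tested. Tnf, Lif and Il6 were named after their values were seen. Il6 had 0.148, 0.116 and 0.0373 FPKM in the HepKO livers and was listed at 0 in all 3 Flox livers.

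Of 8 cytokine receptor genes, 2 rose, 2 fell and 4 did not pass, where 9.33% of all tested genes were called higher and 11.0% lower. Leaving out 1 library gave 1 to 2 that rose and 0 to 3 that fell, with 0 that fell without HepKO replicate 1, HepKO replicate 2, Flox replicate 2 or Flox replicate 3. Osmr, which encodes the oncostatin M receptor and had the smallest adjusted p, averaged 1.56 FPKM in HepKO and 0.593 FPKM in Flox (limma adjusted p = 0.0087). Tnfrsf1a, the most abundant, averaged 56.6 FPKM in HepKO and 46.0 FPKM in Flox (limma adjusted p = 0.099).

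Of 14 genes for signalling proteins and transcription factors, 6 rose, 1 fell and 7 did not pass. Over all tested genes, 9.33% were called higher and 11.0% lower. The median log2 fold change of the 14 was 0.29. Leaving out 1 library gave 4 to 5 that rose and 0 to 2 that fell. Socs3, a feedback inhibitor of cytokine signalling, rose to 38.8 ± 3.15 FPKM in HepKO, against 12.3 ± 0.95 FPKM in Flox, a 3.15-fold difference (limma adjusted p = 0.00057). Cebpb, a C/EBP factor, rose to 165.7 ± 17.0 FPKM in HepKO, against 73.2 ± 12.7 FPKM in Flox (limma adjusted p = 0.0039), and Cebpd, another, to 11.3 ± 1.53 FPKM in HepKO, against 4.21 ± 0.81 FPKM in Flox (limma adjusted p = 0.0034). Nfkbiz, which encodes a nuclear IkappaB protein, averaged 24.3 FPKM in HepKO and 3.94 FPKM in Flox (limma adjusted p = 0.0018). Stat3 averaged 19.5 FPKM in HepKO and 16.3 FPKM in Flox without passing (limma adjusted p = 0.17). Hnf4a, a hepatocyte transcription factor, fell to 93.0 FPKM in HepKO, against 124.2 FPKM in Flox (limma adjusted p = 0.026), a call lost in 5 of the 6 fits that left out 1 library. Cebpd, Nfkbiz, Stat3 and Hnf4a were named after their values were seen.

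Of 10 genes for receptors and binding partners of these proteins, 6 were tested, of which 2 rose and 1 fell. Over all tested genes, 9.33% were called higher and 11.0% lower. Hmox1, which encodes the heme-degrading enzyme heme oxygenase 1, rose 6.69-fold, with 275.3, 239.1 and 236.5 FPKM in the HepKO livers, against 60.9, 21.8 and 29.5 FPKM in the Flox livers (limma adjusted p = 0.0030). Cd163, the macrophage receptor that takes up haemoglobin bound to haptoglobin, had 2.01, 2.66 and 2.76 FPKM in the HepKO livers, against 1.63, 0.949 and 1.64 FPKM in the Flox livers, without passing (limma adjusted p = 0.059). Fpr2, a receptor for SAA proteins on myeloid cells, also rose, having passed the filter on low values only through the HepKO livers, and Lrp1, which takes up heme bound to hemopexin, fell, though the Lrp1 call was lost in 5 of the 6 fits that left out 1 library. Cd163, Fpr2 and Lrp1 were named after their values were seen.

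**Figure D5:**
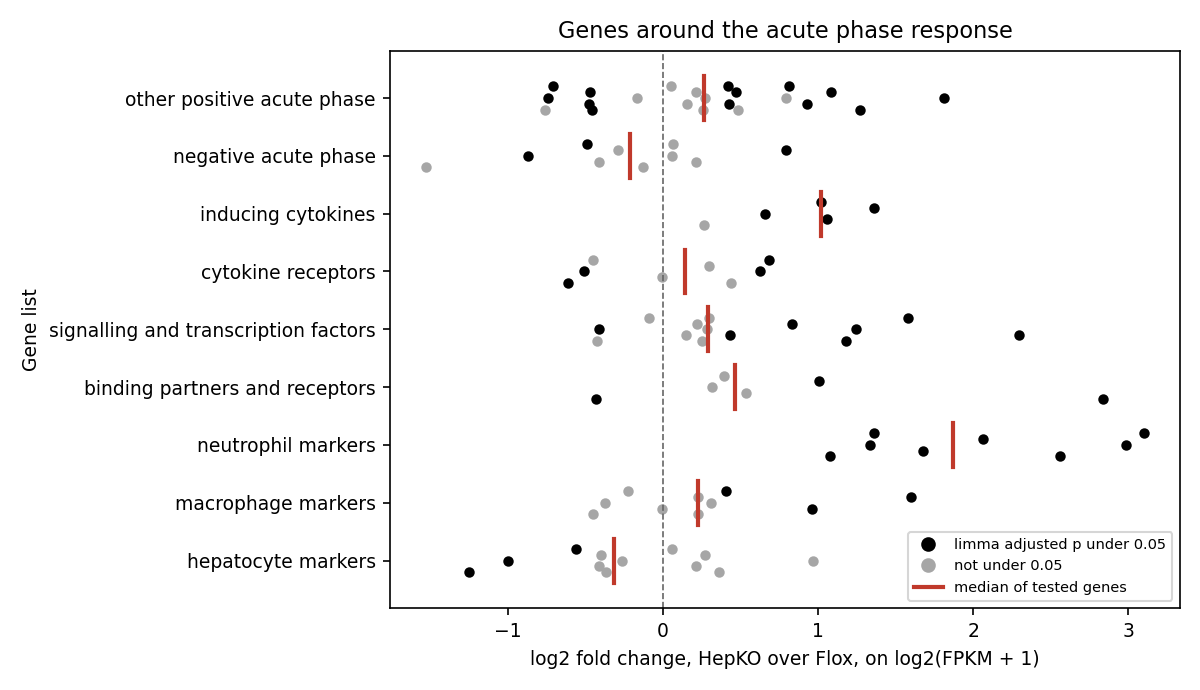
Log2 fold change of HepKO over Flox for each tested gene of the acute phase, cytokine, signalling and cell marker lists, in black where the limma adjusted p was under 0.05, with red bars for list medians. The other positive acute phase genes lie on both sides of 0, with a median of 0.26, and the neutrophil markers lie to the right of it, where 4 of the 8 shown had passed the filter only through the HepKO livers.

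Markers of the other cells in the tissue were read beside these genes. Macrophage markers had 3 of 10 tested genes higher and 0 lower, or 2 higher whichever library was left out. Over all tested genes, 9.33% were called higher and 11.0% lower. Of the 3, Ccr2 passed the filter on low values only through the HepKO livers, so that it could hardly be other than higher there. Ccr2, Marco, Adgre1, Clec4f, Timd4, Cd5l, Vsig4 and Csf1r were named after their values were seen. The summed level of the macrophage markers was 172.7, 188.2 and 156.2 FPKM in the HepKO livers, against 103.9, 100.4 and 148.4 FPKM in the Flox livers. The markers did not move alike. Marco rose to 39.8 FPKM in HepKO, against 13.0 FPKM in Flox (limma adjusted p = 0.012). Adgre1, Clec4f, Timd4 and Cd5l had lower means in HepKO and Vsig4 and Csf1r higher means, none of them passing. Lyz2 rose to 50.3 FPKM in HepKO, against 25.3 FPKM in Flox (limma adjusted p = 0.0045), while Cd68, the most abundant, averaged 41.3 FPKM in HepKO and 35.7 FPKM in Flox (limma adjusted p = 0.46). Among neutrophil markers, S100a9 averaged 73.2 FPKM in HepKO and 8.56 FPKM in Flox (limma adjusted p = 0.00057), and Retnlg averaged 21.5 FPKM in HepKO and 1.61 FPKM in Flox (limma adjusted p = 0.00043). Adipocyte markers had 1 of 3 tested genes higher, Fabp4 (17.2 FPKM in HepKO and 5.03 FPKM in Flox, limma adjusted p = 0.0020), with Adipoq listed at 0 in every library. Cidec, the most abundant of them, averaged 43.2 FPKM in HepKO and 17.9 FPKM in Flox (limma adjusted p = 0.078).

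Globin and erythroid transcripts had 4 of 5 genes higher, where 9.33% of all tested genes were called higher, and all 4 were globin genes. Hba-a1, an alpha globin gene with a near-identical copy, Hba-a2, that may share its reads, led with 249.3 FPKM in HepKO and 43.7 FPKM in Flox (limma adjusted p = 0.0028). The remaining gene, Alas2, averaged 5.92 FPKM in HepKO and 7.54 FPKM in Flox without passing (limma adjusted p = 0.14). Alas2 was named after its values were seen. Hepatocyte markers had 3 of 12 genes lower and 0 higher, with a median log2 fold change of -0.31. Over all tested genes, 11.0% were called lower and 9.33% higher. Leaving out 1 library gave 2 to 3 lower and 0 to 1 higher, with 1 higher without HepKO replicate 2 or Flox replicate 1. Cps1, a urea cycle enzyme gene, fell to 142.9 ± 7.40 FPKM in HepKO, against 343.8 ± 57.5 FPKM in Flox (limma adjusted p = 0.0023). The summed hepatocyte level ranged from 37979 to 41766 FPKM in HepKO and from 35582 to 41220 FPKM in Flox, and most of it was Alb. Singly, 6 of the 12 markers were lower in every HepKO liver than in any Flox liver, as Saa1, Saa2 and Saa4 were, against 25.2% of all tested genes. Of the other markers, 1 was higher in every HepKO liver, against 17.2% of all tested genes, and 5 overlapped. The part of cell makeup in the differences of the 10 genes was not tested.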

How the data were processed

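RNA of 3 HepKO and 3 Flox liver libraries was selected for poly(A), copied with dUTP in the second strand and sequenced as 150-base pairs, per the labels' protocols. The authors deposited FPKM for 28476 genes, per the file headers, with their own p-value and q-value columns. Names listed in the submitters' processing notes, with no role, are StringTie 1.3.4d, HISAT2 2.0.4, cutadapt 1.9, edgeR and DESeq2. Genome build and strand use are not given there. GENCODE M21 (GRCm38) holds 28396 of the identifiers, 25619 with identical coordinates.

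Because FPKM are not counts, count tests were not used, and depth is unknown. Genes averaging 0.5 FPKM or more were fitted in R 4.3.3 by limma 3.58.1, two-sided, with a variance trend and no term but genotype, on log2(FPKM + 1), and adjusted by Benjamini-Hochberg over all 12712 genes with a threshold of 0.05. The log scale understates changes of low genes. Folds are ratios of mean FPKM. Intervals are not adjusted. The fit was tested on simulated data with known changes. Sums and ratios used exact permutation tests (scipy 1.17.1, Python 3.11.15, pandas 2.3.3). Transcripts and promoters were aligned with Biopython 1.88, and plots used matplotlib 3.10.9.

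The 10 genes and the 11 gene lists were chosen with earlier results of these data known. Named genes were the 10 genes, Nedd4, the most abundant tested gene and the gene with the smallest adjusted p of each list, and, for each of the 10 genes past the threshold, the 3 tested genes with the nearest profile. Others are marked as named after their values were seen. The pseudocount, filter, scaling, limma settings and threshold were varied, a replicate block was added, and each library was left out in turn.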

Additional observations from a re-analysis of the deposited data

How the results depend on the processing

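Saa1, Saa2, Saa4, Saa3, Orm1, Lcn2 and Apcs kept their direction under every alternative run, and the sums of Saa1 and Saa2 and of Orm1 and Orm2 kept theirs. The log2 fold change of Orm2 (0.11) turned to -0.094 without HepKO replicate 1, -0.10 without Flox replicate 2 and -0.093 without Flox replicate 3, and reached 0.51 without Flox replicate 1. That of Hp (-0.10) turned to 0.07 without Flox replicate 1 and was -0.19 without Flox replicate 3. That of Hpx (-0.04) turned to 0.021 after median-ratio rescaling, 0.025 without HepKO replicate 1 and 0.087 without Flox replicate 1, and was -0.13 without Flox replicate 2. Leaving out 1 library gave 0 to 2 of the 10 genes higher, against 1 with all libraries, with 0 without HepKO replicate 1 or 2 and 2 without Flox replicate 1. It left 3 lower. At an adjusted p of 0.01 the counts were 0 higher and 2 lower, and at 0.10 there were 3 higher. Over all tested genes, 1186 higher and 1397 lower became 669 to 1035 higher and 612 to 1303 lower when 1 library was left out, 508 and 431 at 0.01, 1619 and 2174 at 0.10, and 941 and 899 with no filter. Of the list genes, 39 higher and 14 lower, the lower count was 4 to 12 when 1 library was left out, 9 with no filter and 4 at 0.01. Of these 53 genes, 33 stayed past the threshold in every fit that left out 1 library. The cause of these shifts was not tested. Same-numbered libraries did not deviate together (r = 0.0029, 0.0021 and -0.026). No library correlated best with its own number, and the numbers were not used as pairs. With the replicate block, 776 genes were higher and 775 lower, 7 list genes were lower, and 2 of the 10 genes were lower, with Saa2 at a limma adjusted p of 0.053. With only FPKM, counting error cannot be given.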

Other observations

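For each of the 10 genes past the threshold, the genes with the most similar profile were those with the smallest Euclidean distance between centred log2(FPKM + 1) values over the 6 libraries, which all share the genotype difference. For Saa1 these were Fam167b (distance 0.457), Hgd (0.472), which encodes an enzyme of tyrosine breakdown, and Etnk2 (0.515). Hgd averaged 23.8 FPKM in HepKO and 84.7 FPKM in Flox. For Saa2 they were Sstr5 (0.281), Qdpr (0.406), whose product recycles tetrahydrobiopterin, and C2cd2 (0.488). For Saa4 they were Casp6 (0.269), Uap1l1 (0.270) and Gstm4 (0.270), a glutathione transferase gene that averaged 7.20 FPKM in HepKO and 18.6 FPKM in Flox. For Lcn2 they were E330011O21Rik (0.459), Ly6d (0.460) and Mrap (0.475), and Mrap averaged 99.1 FPKM in HepKO and 30.6 FPKM in Flox.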
